A study of Mus musculus with 6 samples.

Results

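The proteasome genes of iGBs (induced germinal center B cells) were compared between Control and Prmt1-null cells, as the labels name them. Prmt1 is an enzyme that methylates arginines in proteins. The genes were taken by symbol, as all those that begin with Psm, a letter from a to g and a digit, without pseudogene symbols, which contain -ps. Of the 39017 genes in the count table, 50 met this rule, and 48 of these were among the 18268 genes with enough counts for a test. The rule used the symbols and not the expression values. It took in subunits of the core and cap, the activators, the inhibitor and the assembly factors. A further gene, Psmc3ip, shares the symbol but encodes a meiotic recombination factor and not a proteasome subunit.

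The Control libraries came from 3 mice that carried Cγ1-cre alone (Cg1-cre in the labels), and the Prmt1-null libraries from 3 mice in which Cγ1-cre was combined with Prmt1 F/F, floxed on both alleles (Cg1-cre Prmt1f/f). All 6 mice were of the C57BL6/J strain, each gave 1 library, and either genotype had 2 females and 1 male. Both groups carried the Cre, which is expressed from the Cγ1 constant region gene and therefore acts only in B cells that transcribe Cγ1. Splenic B cells were grown for 3.5 days on 40LB cells, a fibroblast feeder line that presents CD40L and secretes BAFF, with IL-4 (5 ng/ml in the labels, a lower dose in the methods of the study), and the feeders were then removed with an antibody to the d form of H2K. Ages were not given in the sources used here.

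The proteasome is the main protease of the cytosol and nucleus. It takes up proteins tagged with ubiquitin, which a cap of ATPases and ubiquitin receptors unfolds and feeds into a barrel of stacked alpha and beta rings, where 3 of the beta subunits cut. Lymphocytes also make the immunoproteasome, in which Psmb8, Psmb9 and Psmb10 replace the catalytic subunits Psmb5, Psmb6 and Psmb7 and alter the peptides that are loaded on MHC class I. Plasma cells, which secrete antibody at a high rate, are known to be sensitive to proteasome inhibitors.

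The coding sequences of 5 pairs of related members were compared, to see how far reads can tell them apart. Between the catalytic subunits and their immunoproteasome counterparts, 68.8% of aligned coding bases were identical for Psmb5 and Psmb8, 66.4% for Psmb6 and Psmb9 and 65.1% for Psmb7 and Psmb10, and the longest run without a difference was 18 bases. For the activator genes Psme1 and Psme2 the share was 65.0%. By contrast, Psme2 and its copy Psme2b differed at 5 of 717 coding bases (99.3% identical), with an unbroken run of 311 identical bases. The stretch below, coding bases 454 to 543 of both genes in GENCODE release M21, holds 3 of the 5 differences, in capitals, and is shown because it bears on how far the counts of these genes can be separated.
Psme2: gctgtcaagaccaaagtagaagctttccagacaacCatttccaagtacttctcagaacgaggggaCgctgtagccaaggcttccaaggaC
Psme2b: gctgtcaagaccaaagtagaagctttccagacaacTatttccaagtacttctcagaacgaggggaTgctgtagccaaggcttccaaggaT
Reads from the identical stretches match both loci, and the authors counted reads that aligned to at most 2 places in the genome. The values of Psme2 and Psme2b are therefore uncertain one by one.

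The deposited values were raw counts per gene, with 45343250 to 62774232 counts per library. They were scaled to a common library size with edgeR's TMM method, and counts given here are such normalized counts unless called raw. The targeted gene, Prmt1, was counted 3965, 3925 and 4838 times in Control 1 to 3 and 1745, 1478 and 1478 times in Prmt1-null 1 to 3. Its log2 fold change was −1.44, and the Prmt1-null mean was 36.9% of the Control mean (edgeR quasi-likelihood test, adjusted p = 1.11e-05). The source of the remaining Prmt1 counts was not tested. Genes that define B cells were detected in every library, with 34747 to 48203 counts of Cd79a for Control against 41123 to 46634 for Prmt1-null iGBs, and 10488 to 11755 against 10284 to 11335 counts of Pax5. The feeder markers summed to 1575 to 1826 and 1713 to 2192, with Postn and Lum at 0 throughout, those of T cells to 45 to 117 and 48.2 to 158, and those of myeloid cells to 495 to 1006 and 893 to 913. Among single markers, Emr1, the macrophage gene that encodes F4/80, had 300.1, 354 and 404 counts in Control 1, 2 and 3 against 565, 534 and 658 in Prmt1-null 1, 2 and 3 and was the 1 called of 5 myeloid markers tested (edgeR). Of 9 feeder markers tested, 8 were above 0 and 0 called. Of all genes, 49.9% were above 0 and 1.18% were called. Their part in the proteasome values was not tested. In such bulk samples, fewer cells of a type and less RNA per cell cannot be told apart.

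No proteasome gene passed the test, that is, none was called (edgeR, adjusted p under 0.05 over all genes tested and a mean normalized count over 100). Of all 18268 genes, 216 passed it, or 1.18% (0.58% with a higher and 0.602% with a lower level). With a threshold of 1.4-fold in place of the minimum mean count, 0.476% of genes and 0 members passed. At an unadjusted p under 0.05 there were 13 members, 11 higher and 2 lower in Prmt1-null iGBs, where the shares over all genes were 6.5% and 7% (7.94% and 8.89% of the genes with a mean over 100). limma-voom called 249 genes (1.36%) and 0 members. DESeq2 called 709 of 13091 genes (5.42%), among them 3 members. Psma4 and Psmb9 were called higher, as were 2.44% of all genes, and Psmg1 was called lower, as were 2.98%. edgeR without a filter on low counts called 3 members higher, Psma4, Psmb9 and Psmd8, and 0 lower, where the shares of all genes were 1.24% and 1.38%.

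The differences were small, and most had the same sign. A log2 fold change above 0, meaning a higher fitted level in Prmt1-null iGBs, was found in 38 of the 48 tested members and in 49.9% of all genes. The median was 0.10 for the members and −0.001 for all genes tested. Restricted to the 13092 genes with a mean count over 100, as all tested members had, 50.4% of genes were above 0. In 11 members the 3 Prmt1-null libraries were all above the 3 Control libraries, and in 2 they were all below, where the shares over all genes were 9.95% and 9.92%, or 19.9% in either direction (11.2% and 11.4% of the genes with a mean over 100). The members were not independent of each other, and no test was made over the list.

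**Figure D1:**
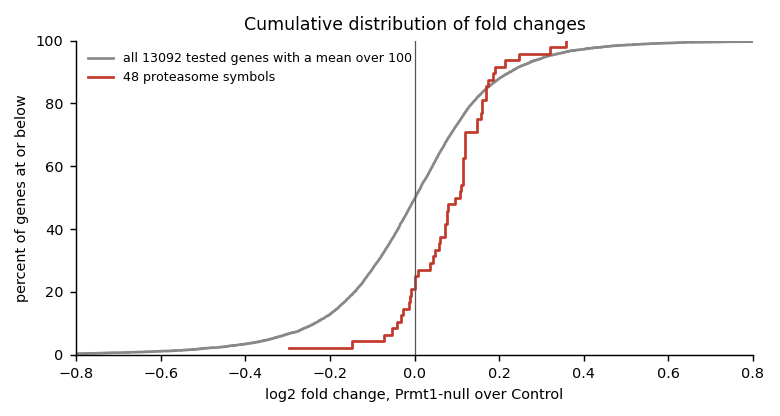
Cumulative share of genes (y axis, percent) at or below each log2 fold change of Prmt1-null over Control (x axis), for the 48 tested proteasome symbols (red) and the 13092 tested genes with a mean normalized count over 100 (grey). The red curve lies to the right of the grey one over most of its length, with a median of 0.10, and ends at 0.36, short of the upper tail of all genes.

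The intervals bounded these differences. For 42 of the 48 members the 95% interval of the fold change lay within 1.4-fold in either direction. For the other 6 it reached beyond: Psma4, Psmb10, Psmd8 and Psmd10 on the upper side, Psmg1 on the lower side and Psmg3 on both.

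**Figure D2:**
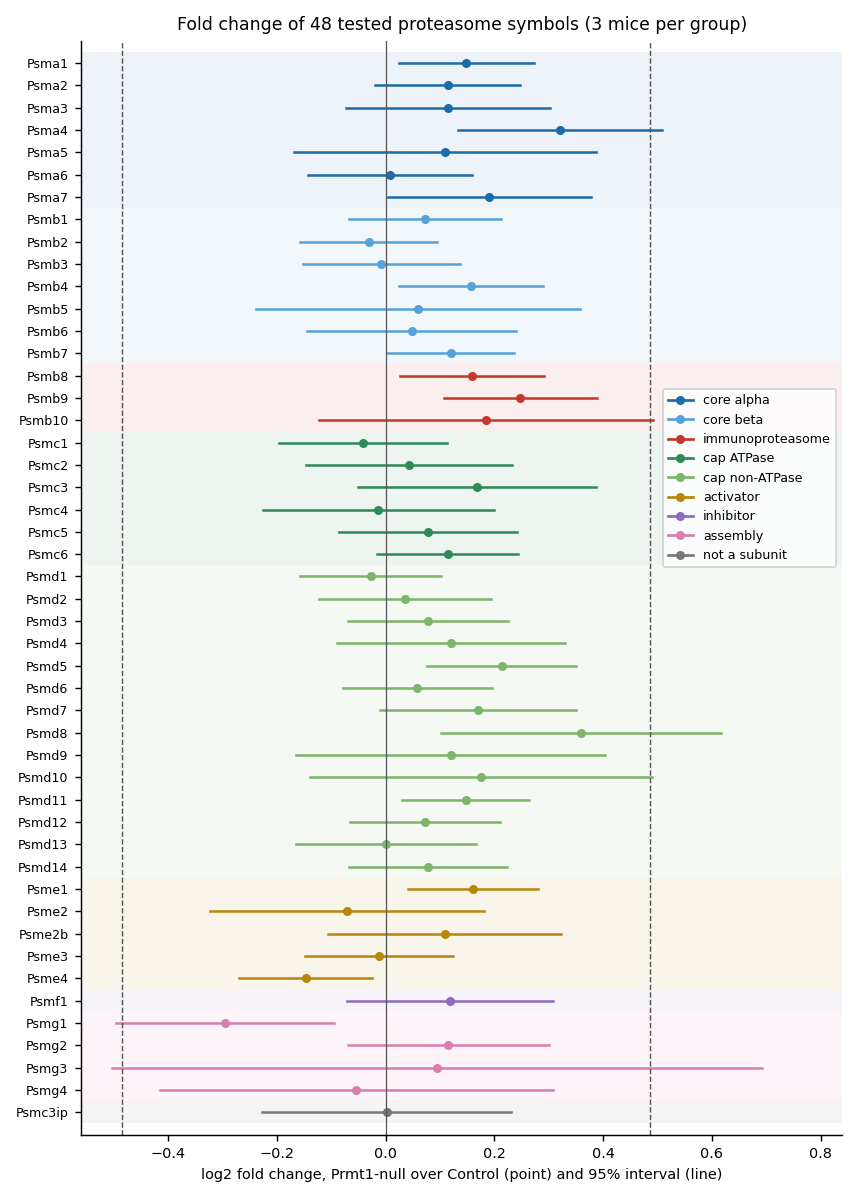
Log2 fold change of Prmt1-null over Control (x axis) of each tested proteasome symbol, coloured by class, with its 95% interval from the edgeR fit over 3 mice per group. Dashed lines mark a 1.4-fold difference, and the points run from −0.30 (Psmg1) to 0.36 (Psmd8).

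The libraries did not contribute equally. Control 1 and Prmt1-null 3 were the male libraries, and Control 1 had the fewest raw counts in all (45343250). With sex as a covariate, the median of the members was 0.11 and 0 members were called. The lowest of the 6 values came from a Control library in 38 of the 48 members, 17 times from Control 1, and the highest from a Prmt1-null library in 31 members, 18 times from Prmt1-null 3. Set against the Control mean on the log2 scale, the median member stood at −0.022, 0.033 and 0.006 in Control 1, 2 and 3, against 0.074, 0.10 and 0.12 in Prmt1-null 1, 2 and 3. These 6 medians did not overlap between groups, whereas the values of single members did in all but 13. The summed level per exonic length over the tested members was 1154 to 1229 RPKM in Control and 1255 to 1302 RPKM in Prmt1-null iGBs (RPKM, counts per kilobase of exon, scaled to library size). The plasma cell marker list also differed in its sum, with 70298 to 75639 counts in Control and 80609 to 86379 in Prmt1-null iGBs. Of the 9 markers, 8 had over 10 counts in every library. Of 8 tested, 2 were called and 7 were above 0, where the shares of all genes were 1.18% and 49.9%. Irf4 and Xbp1 had the most counts. The groups separated for Xbp1, Derl3 and Txndc5 and overlapped for Irf4, Prdm1, Sdc1, Mzb1 and Igj. Igj went the other way, with 8033 to 10152 counts in Control and 8240 to 8724 in Prmt1-null iGBs. Tnfrsf17, which encodes the plasma cell receptor BCMA, was at 0 to 3.78. The part of the marker difference in the proteasome values was not tested.

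**Figure D3:**
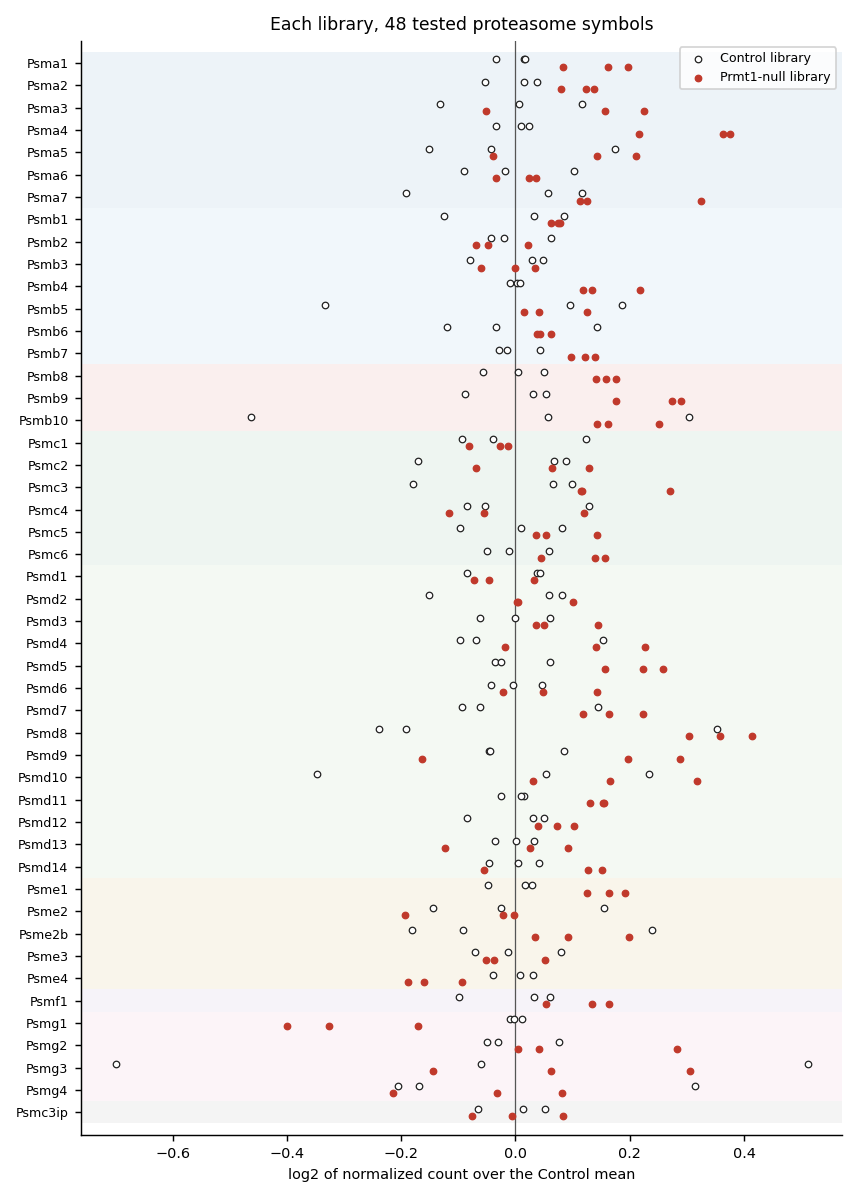
Normalized count of each tested member in each library, as log2 over the Control mean (x axis), with open circles for the 3 Control and red circles for the 3 Prmt1-null libraries and shading by class. Red circles lie mostly to the right of 0, while in Psmg1 and Psme4 all 3 lie to the left of the Control circles.

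The alpha subunits form the outer rings of the core, through which substrates enter. All 7 tested alpha genes had a log2 fold change above 0, with a median of 0.11 (0.11 to 0.18 when a library was left out). In 3 the Prmt1-null libraries were all higher, where the share over all genes was 9.95%. Psma4 had 1435, 1378 and 1421 counts in Control and 1640, 1832 and 1815 in Prmt1-null libraries. The 3 Prmt1-null values were all higher, with a log2 fold change of 0.32 (SE 0.09, edgeR adjusted p = 0.099). Psma1 was at 7995, 8007 and 7731 against 8378, 8851 and 9072, a log2 fold change of 0.15. Psma2 differed by 0.11, and its lowest Prmt1-null count (3455) exceeded its highest Control count (3355) by little. Psma7 was at 0.19 (edgeR adjusted p = 0.355) with overlapping groups, and Psma3 and Psma5 were at 0.11 each. Psma6 had the smallest difference, 0.01. The exons of Psma4 share 114 of their 2370 bases with AY074887 on the opposite strand, and whether the counting used strand was not given in the sources used here. Psma8, which encodes the alpha subunit of germ cells, had 4 raw counts in 1 Prmt1-null library and 0 in the other 5.

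The beta subunits form the inner rings. Of the 7 tested constitutive beta genes, 5 had a log2 fold change above 0, with a median of 0.06 (0.016 without Control 1 and 0.11 without Control 3). Psmb4, a non-catalytic beta subunit, had 3245, 3273 and 3286 counts in Control and 3547, 3584 and 3799 in Prmt1-null iGBs (log2 fold change 0.16, SE 0.06, edgeR adjusted p = 0.264). Psmb7, the trypsin-like catalytic subunit, had 5650, 5883 and 5601 against 6213, 6111 and 6287 (log2 fold change 0.12, edgeR adjusted p = 0.359). In both genes the groups did not overlap. Psmb5 and Psmb6, which carry the other 2 catalytic activities, differed by 0.06 and 0.05, their groups overlapped, and the sign turned for Psmb5 without Control 1 (−0.077) and for Psmb6 without Control 2 (−0.0098). Among the non-catalytic subunits, Psmb1 stood at 0.07, Psmb3 at −0.01 and Psmb2, the lowest, at −0.03. Psmb11, the catalytic subunit of thymic epithelium, lies 3410 bases from Psmb5 on chromosome 14 and had 0 to 10 raw counts per library.

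The 3 immunoproteasome genes were all above 0, with a median of 0.18, which is the value of Psmb10. Psmb9 (β1i, chr17:34181987-34187764 in mm10) had 3145, 3415 and 3469 counts in Control and 4087, 4043 and 3778 in Prmt1-null libraries. Each Prmt1-null library was above each Control library, and the log2 fold change was 0.25 (SE 0.07, 95% interval 0.11 to 0.39, edgeR adjusted p = 0.091). Psmb8 (β5i, chr17:34197721-34201454), its neighbour at a distance of 9956 bases in the MHC region, had 3126, 3367 and 3260 counts against 3630, 3587 and 3672. These groups did not overlap either, with a log2 fold change of 0.16 (SE 0.06, edgeR adjusted p = 0.261). Psmb10 (β2i), on chromosome 8, had 1233, 1767 and 2097 counts in Control and 1876, 2022 and 1900 in Prmt1-null libraries. Its Control libraries lay on both sides of the Prmt1-null ones, so that a log2 fold change of 0.18 came with an SE of 0.14 (edgeR adjusted p = 0.628). Its log2 fold change was 0.0048 without Control 1 and 0.36 without Control 3. Psmb9 shares 212 of 3660 exonic bases with Tap1 and Psmb8 shares 498 of 3381 with Gm20496, both on the opposite strand. Opposite-strand overlaps of exons were also found for Psmb7 (405 bases with Nek6), Psmc3ip (385 with Mlx) and Psmd13 (342 with Sirt3). Smaller ones were those of Psmd1 (252 with Htr2b), Psmc3 (215 with Slc39a13), Psma5 (60 with 1700010K24Rik), Psmd3 (17 with Gm12356) and Psme1 (14 with Emc9). On the same strand, exons were shared by Psmd1 (301 bases with Gm21972), Psmg3 (280 with Gm26938), Psmb5 (109 with Mir686) and Psme2b (41 with 9930111J21Rik1).

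**Figure D4:**
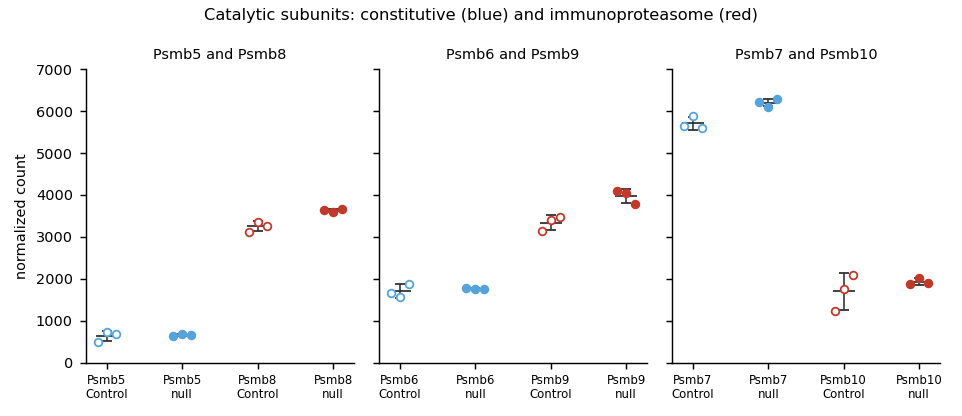
Normalized counts (y axis, starting at 0) of the constitutive catalytic subunits (blue) and their immunoproteasome counterparts (red) in the 3 Control (open) and 3 Prmt1-null (filled) libraries, with mean and SD. The groups separate for Psmb7, Psmb8 and Psmb9 and overlap for Psmb5, Psmb6 and Psmb10, and counts of different genes are not comparable here because they are not divided by length.

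The balance between the catalytic forms was examined per exonic length. Psmb8 made up 58.1% ± 3.80 of the sum of Psmb8 and Psmb5 in Control and 59.4% ± 1.19 in Prmt1-null iGBs (SD, n = 3). Psmb9 made up 50.1% ± 2.24 and 53.5% ± 0.91 of its sum with Psmb6, and Psmb10 37.0% ± 6.24 and 38.5% ± 1.25 of its sum with Psmb7. In all 3 pairs the groups overlapped, for Psmb9 only through Control 2, at 52.6% against a lowest Prmt1-null share of 52.4%. The difference between the mean shares was 1.39 percentage points for Psmb8 (3.58 without Control 1 and 0.113 without Control 2) and 1.47 for Psmb10 (−1.80 without Control 1 and 4.42 without Control 3). The shares themselves depended on the length used. With the length of the transcript that has the longest coding sequence in place of all annotated exons, an alternative added after the values had been seen, the Control shares were 74.1%, 53.6% and 20.7%, and the groups again overlapped in every pair.

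The cap recognizes and unfolds substrates. Its 6 ATPases, which form a ring on the core, had a median log2 fold change of 0.06 (0.021 without Prmt1-null 3 and 0.099 without Control 2), with 4 above 0. Psmc3 was highest at 0.17, with 1175, 1424 and 1392 counts in Control and 1443, 1441 and 1604 in Prmt1-null libraries, a gap between the groups that was narrow beside their spread (edgeR adjusted p = 0.510), and its log2 fold change was 0.091 without Control 1. Psmc6 was at 0.11, Psmc5 at 0.08, Psmc2 at 0.04, Psmc4 at −0.01 and Psmc1 at −0.04, all with overlapping groups.

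The 14 other cap genes had a median of 0.10 (0.064 with the replicate block and the GC and length correction), and 13 were above 0. In the base, Psmd1 and Psmd2, the scaffold subunits, were at −0.03 and 0.04, and Psmd4, a ubiquitin receptor, at 0.12. All 8 lid genes that the symbol rule took (Psmd3, Psmd6, Psmd7, Psmd8, Psmd11, Psmd12, Psmd13 and Psmd14) were above 0. Their median was 0.08, with a range from 0.00 for Psmd13 to 0.36 for Psmd8. Shfm1, the gene of the lid subunit Sem1, lies outside the rule and was at −0.07 with overlapping groups (edgeR adjusted p = 0.743). Psmd14, the deubiquitinase of the lid, was at 0.08. Psmd11, a lid subunit, had 5093, 5232 and 5218 counts in Control and 5772, 5674 and 5765 in Prmt1-null libraries, a log2 fold change of 0.15 with no overlap (SE 0.05, edgeR adjusted p = 0.230).

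Psmd8, a lid subunit with the highest count of the cap genes, had the largest fold change of all tested members and an uneven Control group. Its counts were 13831, 14287 and 20830 in Control and 20899, 20133 and 21729 in Prmt1-null iGBs. Control 3 thus lay among the Prmt1-null libraries, while the other Control libraries lay well below them. The log2 fold change was 0.36 (SE 0.12, edgeR adjusted p = 0.185). Without Control 3 it was 0.57 and passed the test (edgeR adjusted p = 0.000716), whereas it was 0.26 without Control 1 (edgeR adjusted p = 0.377) and 0.27 without Control 2 (edgeR adjusted p = 0.456).

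The genes for the chaperones that assemble the base, Psmd5, Psmd9 and Psmd10, had a median of 0.17, and all 3 were above 0. Psmd5 had 3245, 3036 and 3059 counts in Control and 3634, 3470 and 3722 in Prmt1-null libraries, with no overlap (log2 fold change 0.21, SE 0.06, edgeR adjusted p = 0.136). Psmd10 (gankyrin) was at 0.17 and Psmd9 at 0.12, both with wide spreads. Psmd9 shares 1849 of 7248 exonic bases with Gm26745 on the opposite strand.

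The activators, which open the core in place of the cap, had no common sign. Their median was −0.01 and 2 of 5 were above 0. Psme1 (PA28α), which is induced by interferon-γ together with the immunoproteasome, had 6210, 6492 and 6552 counts in Control and 7189, 7003 and 7329 in Prmt1-null iGBs. These groups did not overlap (log2 fold change 0.16, SE 0.06, edgeR adjusted p = 0.204). Its partner in the PA28 ring, Psme2 (PA28β), had 813, 921 and 748 counts in Control and 826, 815 and 723 in Prmt1-null libraries, a log2 fold change of −0.07. The copy Psme2b, on chromosome 11, had 2128, 2847 and 2263 against 2573, 2471 and 2768, a log2 fold change of 0.11, which ran from 0.029 without Control 1 to 0.25 without Control 2. Since reads can pass between these genes, their counts were also added, which gave 3240 ± 459 in Control and 3392 ± 103 in Prmt1-null iGBs (SD, n = 3), with overlapping groups. Psme3 (PA28γ), the nuclear activator, stood at 16422 ± 874 for Control and 16287 ± 638 for Prmt1-null iGBs (SD, n = 3), a log2 fold change of −0.01.

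Psme4 (PA200), an activator associated with the degradation of acetylated histones, was 1 of the 2 members whose Prmt1-null values were all lower. It had 8238, 8513 and 8642 counts in Control and 7427, 7928 and 7578 in Prmt1-null libraries. The log2 fold change was −0.15 (SE 0.06, edgeR adjusted p = 0.258). Psmf1 (PI31), which inhibits the core in vitro, was at 0.12 with overlapping groups, and at 0.070 without Control 2.

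The other lower member was Psmg1 (PAC1), which with Psmg2 forms a chaperone of the alpha ring. Psmg1 had 1558, 1580 and 1565 counts in Control and 1392, 1188 and 1251 in Prmt1-null libraries. The Control libraries were close together, and all Prmt1-null libraries were below them, with a log2 fold change of −0.30 (SE 0.09, edgeR adjusted p = 0.160). Psmg2 (PAC2), its partner, had 2426, 2254 and 2224 against 2309, 2367 and 2801 counts, a log2 fold change of 0.12 (edgeR adjusted p = 0.611), which was 0.023 without Prmt1-null 3. Psmg3 and Psmg4, the second chaperone pair, were at 0.09 and −0.05. Both signs turned when a library was left out (−0.17 to 0.44 and −0.15 to 0.14). Psmg3 had the lowest counts of the tested members, between 91.3 and 211, and an SE of 0.28. Psmc3ip, the gene outside the proteasome, was at 0.00 (SE 0.11).

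Levels were compared between genes only per length. Over the 6 libraries, the mean level per exonic length was highest for Psmb2 (125 RPKM) and Psmd8 (110 RPKM), with Psme3 next, and lowest for Psmg3 (0.953 RPKM), Psmd9 (1.69 RPKM) and Psmf1 (4.40 RPKM), and the median member was at 17.2 RPKM. The 3 immunoproteasome genes were close together, in the order Psmb9, Psmb8 (18.3 RPKM) and Psmb10 (19.2 RPKM), but per length of the coding transcript they spread in the opposite order, with 48.8 RPKM for Psmb9, 38.1 RPKM for Psmb8 and 25.0 RPKM for Psmb10. The core alpha genes, whose products are present once per ring, ran from 8.11 RPKM for Psma5 to 50.9 RPKM for Psma1. Per length of the coding transcript the median was 29.8 RPKM, Psmd8 was highest at 218 RPKM, and the core alpha genes ran from 8.64 to 125 RPKM. Reads that align to more than 2 places were dropped by the authors, so the levels of genes with processed copies elsewhere, such as Psmb5, are uncertain. The 3 pseudogenes of members that the table lists had 0 to 45 raw counts per library.

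**Figure D5:**
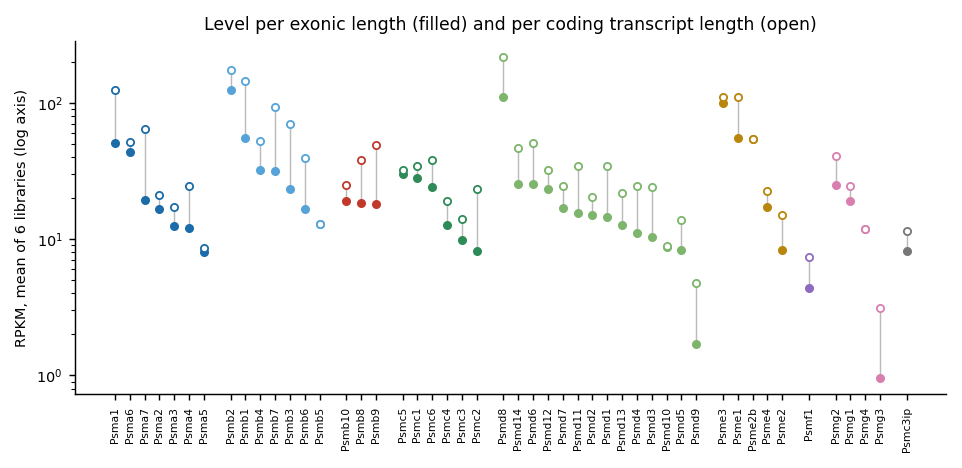
Level of each tested member as RPKM on a log axis, mean of 6 libraries, per annotated exonic length (filled) and per length of the transcript with the longest coding sequence (open), coloured by class. Levels spread widely within most classes with several genes, less so per exonic length among the immunoproteasome genes, and the length used moves several genes by more than the differences between neighbouring genes.

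The members lie on 16 chromosomes. A further 48 genes around the proteasome were examined, of which 47 were in the table and tested, and 1 was called, at a lower level, where 1.18% of all genes were called. This was Uchl5, a deubiquitinase that docks on the cap. It had 2081, 2141 and 1798 counts in Control and 1455, 1543 and 1528 in Prmt1-null libraries, with no overlap, a log2 fold change of −0.41 and an SE of 0.09 (edgeR adjusted p = 0.044). The call did not hold when any library other than Control 3 was left out, where the adjusted p with edgeR was between 0.0978 and 0.196. Nor did it hold with chromosome Y genes kept (edgeR adjusted p = 0.0566), with the replicate number as a block (edgeR adjusted p = 0.0821) or with a threshold of 1.4-fold. DESeq2 also called Uchl5 (DESeq2 adjusted p = 0.00128). Its log2 fold change ran from −0.48 to −0.36 when a library was left out. Among the 12 partners of the proteasome, including its maturation factor Pomp (log2 fold change 0.04), the ubiquitin receptor Adrm1 (0.05) and the deubiquitinase Usp14 (0.08), 6 were above 0. The E3 ligase Ube3c was at −0.20 (−0.13 without Control 1) and Fbxo7, a binding partner of Psmf1, at 0.21, neither past the test.

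Of 8 genes for the transcription of proteasome subunits, 3 were above 0. Nfe2l2, which encodes Nrf2, had 3696, 3723 and 3959 counts in Control and 4354, 4299 and 4507 in Prmt1-null libraries. All Prmt1-null values were higher (log2 fold change 0.21, SE 0.06, edgeR adjusted p = 0.114, DESeq2 adjusted p = 0.0434). Nfe2l1, the factor that raises proteasome genes when the proteasome is inhibited, was at 0.16 with overlapping groups, and at 0.081 without Control 1. Nfyb, a subunit of the factor that binds CCAAT boxes, was at −0.26 (edgeR adjusted p = 0.272), and at −0.11 without Control 1, in which it was highest.

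Among the genes for ubiquitin, its activation and the shuttles that carry substrates there was no call. The shuttle Ubqln4 was at −0.20 and Ufd1l, a cofactor of the unfoldase Vcp, at −0.19. Of 11 inducers and neighbours of the immunoproteasome, 10 were above 0, with a median of 0.11 and no call. Tap1, the peptide transporter gene next to Psmb9, had 11760, 12161 and 13660 counts in Control and 14646, 14397 and 13130 in Prmt1-null libraries, which overlapped (log2 fold change 0.17, edgeR adjusted p = 0.310). Nlrc5, the activator of MHC class I genes, was at 0.24 and Irf9 at 0.16, both with overlapping groups and both highest in Prmt1-null 1. Without that library they were at 0.083 and 0.081.

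The promoters of the members were searched for short motifs in RefSeq windows (GRCm38.p6) from 250 bases before to 50 bases after the start site, on both strands. Such windows were at hand for 42 of the 50 members. In 57.8% of the member windows a GENCODE transcript began within 30 bases after the start site, so the other start sites are less certain. The core of the antioxidant response element, TGACNNNGC, which Nrf1 and Nrf2 bind, was found in 6 members (14.3%) and in 14.0% of all genes with a window. The CCAAT box was found in 35.7% of members and 41.1% of genes, and the E-box CACGTG, which Myc binds, in 9.52% and 8.09%. The core of the interferon-stimulated element, which is GAAA, any 2 bases and GAAA, was found in 5 members (11.9%) and 3.99% of genes. These 5 were Psmb3, Psmd4, Psmd9, Psme1 and Psmg4. A match is a description of the letters and not a bound site.

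The antioxidant response element core lay wholly before the start site, with its flanks, in 4 members, which are printed 5′ to 3′ on the strand of the gene with the motif in capitals, because this element is the best known control sequence of proteasome genes. In Psmc6 and Psmd12 the motif reads on the other strand. The coordinates are chr14:54618024-54618052 (minus strand) for Psmb5, chr14:45329587-45329615 (plus) for Psmc6, chr11:107479278-107479299 (plus) for Psmd12 and chr5:123228149-123228177 (plus) for Psmd9.
Psmb5: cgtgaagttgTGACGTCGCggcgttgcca
Psmc6: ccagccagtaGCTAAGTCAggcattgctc
Psmd12: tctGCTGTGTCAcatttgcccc
Psmd9: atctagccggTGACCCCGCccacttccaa
The log2 fold changes of these genes were 0.06, 0.11, 0.07 and 0.12, and in all 4 the groups overlapped. The other members with the core, Psmb6 and Psme4, were at 0.05 and −0.15. In Psme4 all Prmt1-null values were lower.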

How the data were processed

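The authors used Trimmomatic 0.32 for trimming and STAR 2.3.0e for alignment to mm10, and counted primary alignments to at most 2 locations on exons of Ensembl genes with featureCounts 1.4.4. The deposited values are these raw counts per gene and were used without change. The strand setting was not given in the sources used here. About 70% of counts between 1 and 9 were even (69.8% to 71.1% per library), against 50.4% to 51.4% of counts of at least 200, so read mates may have been counted separately.

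Following the methods of the study, 398 chromosome Y genes were removed. In R 4.3.3, edgeR 4.0.16 was run on all genes with filterByExpr (minimum count 10), TMM and the quasi-likelihood test, with Benjamini-Hochberg adjustment over 18268 genes. The biological coefficient of variation was 0.154. DESeq2 1.42.0 (the study used an earlier version), limma-voom (limma 3.58.1), DESeq2 size factors in edgeR, no filter, no minimum mean, chromosome Y genes kept, sex as a covariate, the replicate number as a block, a correction for GC content and length, and leaving out each library were tried as alternatives. The methods were tested on simulated data.

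RPKM used exonic lengths of GENCODE release M21, to which 37693 of the 39017 genes were matched by gene ID and 803 by symbol. Members, gene lists and the rule for named genes were chosen with earlier results of these data known. The rule took Prmt1, the catalytic pairs, all activators, the inhibitor and assembly factors, the extremes and smallest p-values of each other class, members without overlap, and from each list of other genes those called or with the 3 smallest p-values. Some genes that the rule or lists hold are not reported here. Psma3, Psma5, Psmb1, Psmb3, the remaining cap genes, Pomp, Adrm1, Shfm1 and Usp14 were named to complete their groups. Libraries came from separate mice, as stated in the methods of the study.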

Additional observations from a re-analysis of the deposited data

How the results depend on the processing

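The number of genes called over the whole table was 709 with DESeq2, 675 without a filter on low counts and 344 with the GC and length correction. It was 87 with a fold change over 1.4 in place of the minimum mean count, and 31 to 340 when a library was left out. The number of members called was 3 with DESeq2, 3 without the filter and 0 to 1 when a library was left out, the 1 being Psmd8 without Control 3. In the list of other proteasome genes, 2 were called with DESeq2 and 0 with chromosome Y genes kept, with the replicate block, with the block and the GC and length correction, or with the fold threshold, and 0 to 1 without a library. The adjusted p of Uchl5 was 0.0566 with chromosome Y genes kept. The median over all tested members was 0.066 with the GC and length correction and 0.069 to 0.098 without a library.

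Class medians moved by more than the spread between replicates as follows. The cap genes other than ATPases stood at 0.066 and the activators at −0.050 with the GC and length correction, and at 0.064 and −0.049 with the block added. Without a library, the medians ran from 0.11 to 0.18 for the core alpha genes, from 0.016 to 0.11 for core beta, from 0.13 to 0.28 for the immunoproteasome and from −0.017 to 0.029 for the activators. With the coding transcript length, the Control shares of Psmb8, Psmb9 and Psmb10 were 74.1%, 53.6% and 20.7%, and the median level was 29.8 RPKM. The cause of these shifts was not tested.

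Signs were followed for the named genes. That of Psmc3ip turned with limma-voom (−0.0024) and with the GC and length correction, without (−0.0289) and with the block (−0.0290). Leaving out a library turned the sign of 10 of the named members, whose log2 fold changes ran from −0.032 to 0.062 for Psma6, −0.059 to 0.0010 for Psmb2, −0.077 to 0.16 for Psmb5, −0.0098 to 0.13 for Psmb6, −0.085 to 0.025 for Psmc1, −0.041 to 0.045 for Psmc3ip, −0.14 to 0.014 for Psme2, −0.047 to 0.033 for Psme3, −0.17 to 0.44 for Psmg3 and −0.15 to 0.14 for Psmg4. Over all tested members, 36 to 38 were above 0 under the alternatives with every library and 35 to 39 when one was left out. Without a library, the difference in share ran from 0.113 to 3.58 percentage points for Psmb8, from 2.60 to 4.68 for Psmb9 and from −1.80 to 4.42 for Psmb10.

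Same-numbered libraries came from different mice, and their deviations from the group means correlated at −0.075, 0.045 and −0.078 over 18268 genes, so the libraries were treated as sharing only a number. The mitochondrial share of counts, however, was close between same-numbered libraries, at 3.51% and 3.26% for number 1, 2.74% and 2.93% for number 2 and 1.96% and 1.95% for number 3, Control first. With the replicate block, 151 genes and 0 members were called, and the median of the members was 0.11.

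With 3 mice per group, a member that missed the threshold is not shown to be equal in both groups, and the intervals of 6 members reached 1.4-fold. All tested members had a mean count over 100, and Psmg3, with the fewest counts, was the least precise.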
